A study of Rattus norvegicus with 20 samples.

Results

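The 3 gonadal microRNAs rno-miR-202-3p, rno-miR-132-3p and rno-miR-212-3p were followed in rat male germ cells, each chosen by its name in the array files, and are written below without the prefix for rat. MicroRNAs (miRNAs) are short RNAs that pair with target messages through their 5′ end and lower their output. The chosen miRNAs are 3 of 677 rat miRNAs on the array, and all 3 passed the detection rule that left 217 miRNAs for testing. The samples were 20 one-colour Cy3 arrays of germ cells of male Sprague-Dawley rats, in 4 groups of 5. Saline pachytene spermatocytes and saline round spermatids came from rats gavaged with saline, and the cyclophosphamide groups from rats gavaged with the alkylating drug at 6 mg/kg, in both cases for 4 weeks, dosed 6 days in each. Pachytene spermatocytes are germ cells in meiotic prophase, and round spermatids are their haploid descendants before the nucleus elongates. Cells were fractions from unit gravity sedimentation, which enriches a stage without a sort on a marker, and 100 ng of total RNA was labelled. Each array carries a rat number, and p-values measure the spread between rats only if the 5 labels of a group mark 5 animals. In cyclophosphamide pachytene spermatocytes 2 arrays carry the number 16 with different years, and they were taken as separate rats on that label alone. In these bulk fractions, fewer cells of a type and less RNA per cell cannot be told apart.

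As background, miR-202 comes from a gene expressed mainly in the testis and ovary, where it is known from Sertoli cells, the somatic cells that nurse the germ line, and from germ cells. Sertoli cells carry the receptor for follicle-stimulating hormone, which raises cyclic AMP and activates the transcription factor CREB. The miR-132 and miR-212 precursors lie side by side in one transcription unit that CREB activates, and both are known to be induced by gonadotropins in ovarian granulosa cells and by activity in neurons.

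The mature sequences are shown because seed and tail decide which values may be read together. They are taken from RefSeq (GRCr8), 5′ to 3′, with the seed, bases 2 to 8, in capitals. The last line is a let-7 family member shown for comparison with miR-202-3p.
miR-202-3p: aGAGGUAUagcgcaugggaaa
miR-132-3p: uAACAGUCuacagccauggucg
miR-212-3p: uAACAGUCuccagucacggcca
let-7a-5p: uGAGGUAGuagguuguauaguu

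The seeds of miR-132-3p and miR-212-3p are the same, and among the 693 rat mature miRNAs in the RefSeq table only these 2 carry it. They are identical at 17 of 22 positions, and the substitutions from miR-132-3p to miR-212-3p, counted from 1 at the 5′ end, are A10C, C14U, U17C, U20C and G22A. All 5 lie outside the seed. The seed of miR-202-3p stands alone in the table and differs from that of let-7a-5p, shared by 9 mature miRNAs, by G8U, so that 6 of 7 seed bases are the same. Outside the seed the likeness ends, with 8 of 21 positions identical over the whole of miR-202-3p.

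In GRCr8, miR-212-3p lies at chr10:60521811-60521832 and miR-132-3p at chr10:60522091-60522112, both on the plus strand and 259 bases apart. No other annotated gene overlaps either precursor, and the nearest protein-coding genes on the sides are Hic1 and Ovca2. The position of miR-202-3p is chr1:204184352-204184372 on the minus strand, within the uncharacterised gene LOC120099956, with Utf1 and LOC103691261 as protein-coding neighbours. The array files carry no coordinates of their own.

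The arrays lay on 3 slides, and the slides were not balanced over the groups. Slides 1 and 2 held both cell types, and slide 3 held only round spermatids, 3 saline arrays and 1 cyclophosphamide array. Between 181 and 281 miRNAs were detected per array, 18.9% to 31.4% of spots were well above background, and replicate arrays correlated at r between 0.958 and 0.996. Signals are processed scanner intensities scaled to a common level, without a unit, and fits were made on their log2 with values below a floor of 12.2 (3.61 on the log2 scale) raised to it. Each probe has its own response, so a level of one miRNA is not set against a level of another. Of the 677 miRNAs 23.3% were detected on all 20 arrays, among them the germ cell miRNAs miR-34b-5p, miR-34c-5p and miR-449a-5p, and 56.6% on none.

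miR-202-3p was lower in round spermatids than in pachytene spermatocytes, by about 3-fold, under both treatments. In saline pachytene spermatocytes its scaled signal was 103, 85.8, 78.6, 95.3 and 89.9 in rats 13, 16, 25, 26 and 28. In cyclophosphamide pachytene spermatocytes it was 85.0, 78.6, 94.4, 97.6 and 103 in rats 7, 15, the earlier rat 16, the later rat 16 and 29. The 10 pachytene arrays thus lay in a narrow band, with log2 means of 6.49 ± 0.15 (SD, n = 5) and 6.51 ± 0.16.

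Saline round spermatids gave a miR-202-3p signal of 28.4, 42.4, 27.8, 22.7 and 17.3 in rats 15, 16, 17, 25 and 28. Cyclophosphamide round spermatids gave 39.5, 29.1, 34.4, 23.6 and 32.2 in rats 14, 15, 16, 25 and 26. The brightest spermatid array, at 42.4, was below the dimmest pachytene array, at 78.6, so the cell types did not overlap. The miRNA was detected on all 20 arrays, with every one of its 10 spots above background on each, so this difference was not set by the floor.

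**Figure D1:**
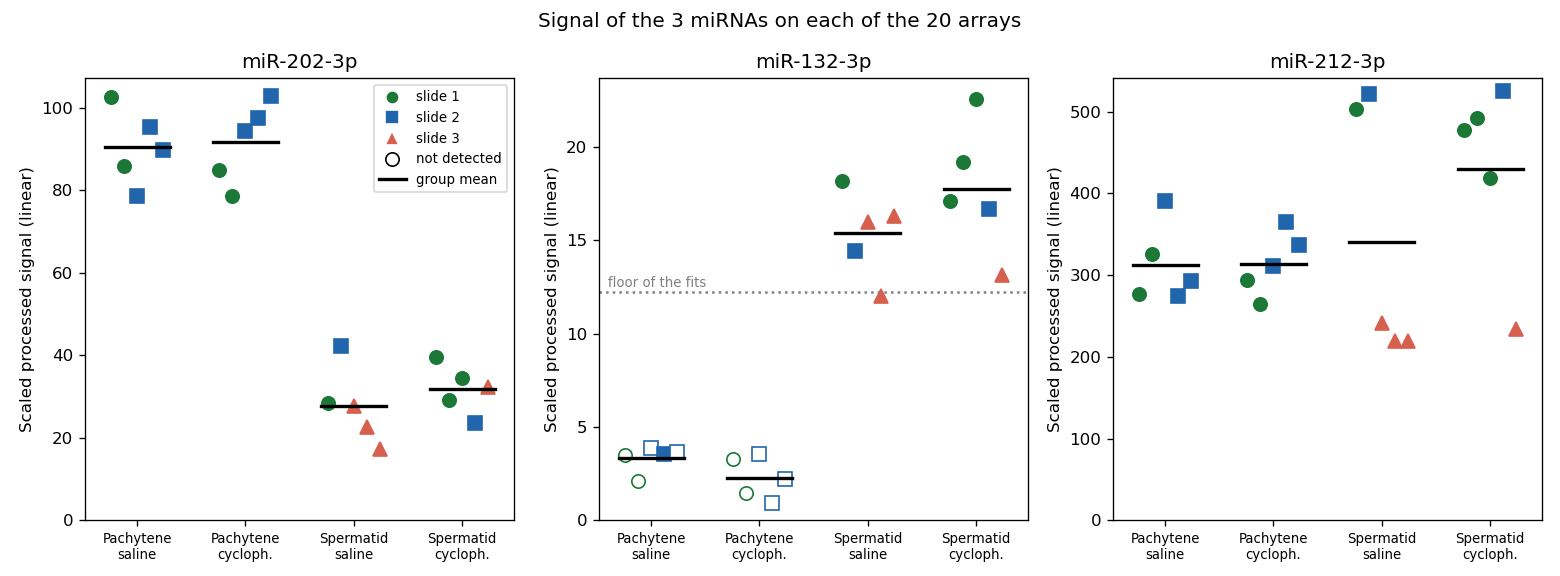
Scaled processed signal (linear, from 0) of miR-202-3p, miR-132-3p and miR-212-3p on each array, by group, with colour and shape for the slide, open symbols where the miRNA was not detected and a bar at the mean of each group (n = 5). miR-202-3p is lower and miR-132-3p higher on all 10 round spermatid arrays, and miR-212-3p parts the 4 spermatid arrays of slide 3, at 219 to 241, from the other 6, at 419 to 525.

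On the log2 scale miR-202-3p averaged 4.73 ± 0.47 (SD, n = 5) in round spermatids of saline rats and 4.97 ± 0.28 in those of cyclophosphamide rats. For saline rats the difference, spermatids minus pachytene, was -1.76 ± 0.18 (SE; 95% interval -2.14 to -1.38), with a limma adjusted p of 2.36e-07. That is 3.40-fold lower (2.61 to 4.42). In cyclophosphamide rats it was -1.54 ± 0.18 (-1.92 to -1.16), or 2.92-fold lower (2.24 to 3.79), with a limma adjusted p of 8.6e-07.

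Many miRNAs parted the cell types. Of the 217 tested miRNAs limma called 47.9% in saline rats, made up of 25.8% higher and 22.1% lower in spermatids, and 51.2% in cyclophosphamide rats, made up of 29.0% higher and 22.1% lower. Groups that did not overlap, in the lower direction, were seen for 17.1% and 18.0%. Against that background the size of the difference placed miR-202-3p 3 from the lowest of 217 in saline rats and 9 from the lowest in cyclophosphamide rats.

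The fall of miR-202-3p was seen on both slides that hold both cell types, at -1.72 and -1.26 within slide 1 and at -1.05 and -2.06 within slide 2 (saline and cyclophosphamide). With slide as a block it was -1.54 ± 0.21 (SE) and -1.46 ± 0.18. A second probe for miR-202-3p gave 33.8 to 53.1 in pachytene spermatocytes and 12.5 to 31.4 in round spermatids, again without overlap. With normexp background correction, which moved the median of all miRNAs up by 0.44 in saline rats, the saline difference was -0.38 with a limma adjusted p of 0.199, and the call was lost.

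The opposite arm of the precursor, miR-202-5p, was near the detection limit. It was detected on 8 of 10 pachytene arrays, 4 in each treatment, and on 0 of 10 round spermatid arrays. Its signal was 6.45 to 8.26 on the pachytene arrays of slide 1 and 11.2 to 16.2 on those of slide 2, and -0.248 to 4.01 in round spermatids. On this probe, the brightest of 3, the cell types did not overlap, but on the other probes they did, at 1.77 to 8.44 against -1.17 to 2.70 and at -1.41 to 4.10 against -1.78 to 4.23. miR-202-5p was not tested, since no group had it detected on all 5 arrays, and its pachytene signal moved with the slide.

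Among the let-7 family, which has a seed close to that of miR-202-3p, all 8 members on the array were tested. In saline rats 0 were higher and 2 lower in spermatids, and in cyclophosphamide rats 0 and 3, with medians of -0.04 and -0.08 on the log2 scale against 0.02 and 0.05 over all tested miRNAs. The share called lower over all tested miRNAs was 22.1% in both, near the 2 of 8 in saline and below the 3 of 8 in cyclophosphamide rats. The shares called higher were 25.8% and 29.0%, against 0 of 8 here. The lower ones were let-7b-5p, at -0.51 ± 0.11 (SE) and -0.55 ± 0.11, let-7c-5p, at -0.32 ± 0.12 and -0.36 ± 0.12, and, in cyclophosphamide rats, miR-98-5p at -0.52 ± 0.19. The probes of let-7a-5p and let-7f-5p gave the highest signals of the list. These members differed by 0.07 ± 0.07 and 0.03 ± 0.06 in saline rats and did not pass the test.

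miR-132-3p was detected in round spermatids and was at or below the detection limit in pachytene spermatocytes. Its scaled signal in saline pachytene spermatocytes was 3.50, 2.10, 3.87, 3.56 and 3.68 in rats 13, 16, 25, 26 and 28. In cyclophosphamide pachytene spermatocytes it was 3.31, 1.46, 3.53, 0.926 and 2.24 in rats 7, 15, the earlier rat 16, the later rat 16 and 29. Feature Extraction called it detected on 1 of these 10 arrays, saline rat 26, and 0 of the 100 pachytene spots were well above background.

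In saline round spermatids the signal of miR-132-3p was 18.2, 14.4, 16.0, 12.02 and 16.3 in rats 15, 16, 17, 25 and 28. In cyclophosphamide round spermatids it was 17.1, 19.2, 22.6, 16.7 and 13.2 in rats 14, 15, 16, 25 and 26. It was detected on all 10 spermatid arrays, with 70 of 100 spots well above background, and the dimmest of these arrays, at 12.02, lay above the brightest pachytene array, at 3.87. On the log2 values raised to the floor, groups that did not overlap in the higher direction were seen for 18.0% of tested miRNAs in saline and 19.8% in cyclophosphamide rats. miR-132-3p is among the latter but not the former, since saline spermatid rat 25 lay at the floor with the pachytene arrays. The number of spots above background was uneven, at 1 of 10 in saline rat 16 and cyclophosphamide rat 14 and 10 of 10 on 4 arrays.

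Of the 677 miRNAs, 2 (0.295%) were detected on all 10 round spermatid arrays and on at most 1 pachytene array. These were miR-132-3p and miR-7a-2-3p. The cut is the pattern of miR-132-3p itself, so this count is a description only. In the mirrored pattern, all 10 pachytene arrays and at most 1 spermatid array, there were 4 (0.591%). The second miR-132-3p probe separated the cell types in the same direction, at -0.704 to 2.45 in pachytene spermatocytes and 7.89 to 14.8 in round spermatids.

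Because all pachytene values lay under the floor, the fitted difference of miR-132-3p understates the separation of the signals and depends on the floor. It also entered testing only through the spermatid groups in which it is high, so its calls are given as a description and support nothing further. On the log2 scale pachytene spermatocytes stood at the floor, 3.61, while saline and cyclophosphamide round spermatids averaged 3.93 ± 0.22 (SD, n = 5) and 4.13 ± 0.29. The difference in saline rats was 0.32 ± 0.11 (SE; 95% interval 0.09 to 0.56), with a limma adjusted p of 0.0232, where 25.8% of tested miRNAs were called higher. In cyclophosphamide rats it was 0.52 ± 0.11 (0.28 to 0.75), with a limma adjusted p of 0.000788, where 29.0% were called higher. For this miRNA the measured spread behind these intervals and p-values comes from spermatid arrays only, since every pachytene value was the floor.

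In cyclophosphamide rats, where miR-132-3p was detected on 0 of 5 pachytene arrays, the signal was higher in spermatids by 1.75-fold or more, with spermatid values taken as measured. For this bound the spermatid mean was set against the dimmest signal that still stood well above background on each pachytene array, or against the miRNA itself where that was brighter. The spermatid signals of rats 14 and 26, at 17.1 and 13.2, lay below that limit on their own arrays, 23.6 and 13.7. The bound is therefore not strict. In saline rats no bound is given, since it was detected on 1 of 5 pachytene arrays, at a signal of 3.56 with 0 of 10 spots well above background. With a floor of 6.11 the differences became 1.32 ± 0.12 (SE) and 1.52 ± 0.12, so their size is not fixed by these data.

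Both calls for miR-132-3p depended on the processing. They were lost in saline and cyclophosphamide rats with quantile normalization (limma adjusted p of 0.135 and 0.106), without scaling (0.246 and 0.182) and with normexp (0.103 and 0.99), and the saline call without a detection filter (0.0837). Without saline spermatid rat 15 the difference was 0.26, with a limma adjusted p of 0.0692, and without saline spermatid rat 28 it was 0.30, with a limma adjusted p of 0.0552. With slide as a block the differences were 0.48 ± 0.11 (SE; limma adjusted p of 0.00195) and 0.54 ± 0.10 (0.000185), where 25.8% and 31.3% of tested miRNAs were called higher. The opposite arm, miR-132-5p, was detected on 0 of 20 arrays.

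miR-212-3p, which shares the seed and the transcription unit of miR-132-3p, was bright in both cell types, and its values in round spermatids split by slide. In saline pachytene spermatocytes the scaled signal was 277, 326, 390.0, 274 and 292 in rats 13, 16, 25, 26 and 28. In cyclophosphamide pachytene spermatocytes it was 294, 265, 311, 365 and 336 in rats 7, 15, the earlier rat 16, the later rat 16 and 29. Both sets covered the same range, with log2 means of 8.27 ± 0.21 (SD, n = 5) and 8.29 ± 0.18.

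In saline round spermatids the signal of miR-212-3p was 502 in rat 15 on slide 1, 521 in rat 16 on slide 2, and 241, 219 and 219 in rats 17, 25 and 28 on slide 3. In cyclophosphamide round spermatids it was 477, 492 and 419 in rats 14, 15 and 16 on slide 1, 525 in rat 25 on slide 2, and 234 in rat 26 on slide 3. The 6 spermatid arrays of slides 1 and 2 lay above every pachytene array, and the 4 of slide 3 lay below every pachytene array. All 10 spots were well above background on each of the 20 arrays.

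Within round spermatids, with treatment in the model, slide 3 was lower than the other slides for miR-212-3p by 2.17-fold (log2 -1.12 ± 0.07, SE), with a limma adjusted p of 9.57e-05. Of all tested miRNAs 9.22% were called in this comparison, 15 lower on slide 3 (6.91% of those tested) and 5 higher. The values were -0.29 ± 0.15 for miR-132-3p (limma adjusted p of 0.324) and -0.37 ± 0.25 for miR-202-3p (limma adjusted p of 0.451). The second miR-212-3p probe split the same way, at 145 to 168 in the spermatids of slides 1 and 2 and at 58.3 to 69.8 on slide 3, against 82.7 to 117 in pachytene spermatocytes. Slide 3 was also scanned apart from the other slides, and slide and scan cannot be told apart.

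The comparison of cell types for miR-212-3p therefore turned on slide 3. Over all arrays the difference was 0.02 ± 0.26 (SE; 95% interval -0.52 to 0.56) in saline rats, with a limma adjusted p of 0.978, and it was below 0 without scaling (-0.45) or with a percentile over all probe spots (-0.22). In cyclophosphamide rats it was 0.41 ± 0.26 (-0.14 to 0.95), with a limma adjusted p of 0.2, and 0.61 with a limma adjusted p of 0.0409 without cyclophosphamide spermatid rat 26.

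With slide as a block, miR-212-3p was higher in spermatids by 0.72 ± 0.11 (SE) in saline rats and 0.68 ± 0.10 in cyclophosphamide rats, with limma adjusted p-values of 4.07e-05 and 1.32e-05. Slide 3 held no pachytene array, so it gave no direct comparison of cell types. In saline rats only 1 spermatid array on each of slides 1 and 2 was compared directly. This holds for the slide block fits of all 3 miRNAs. Within slide 1 the differences were 0.74 and 0.73, the first from 1 saline spermatid array, and within slide 2 they were 0.73 and 0.64, each from 1 spermatid array against 3 pachytene arrays. Without slide 3 they were 0.73 ± 0.14 and 0.61 ± 0.11, where 22.6% and 29.5% of tested miRNAs were called higher. The opposite arm, miR-212-5p, was detected on 0 of 20 arrays.

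**Figure D2:**
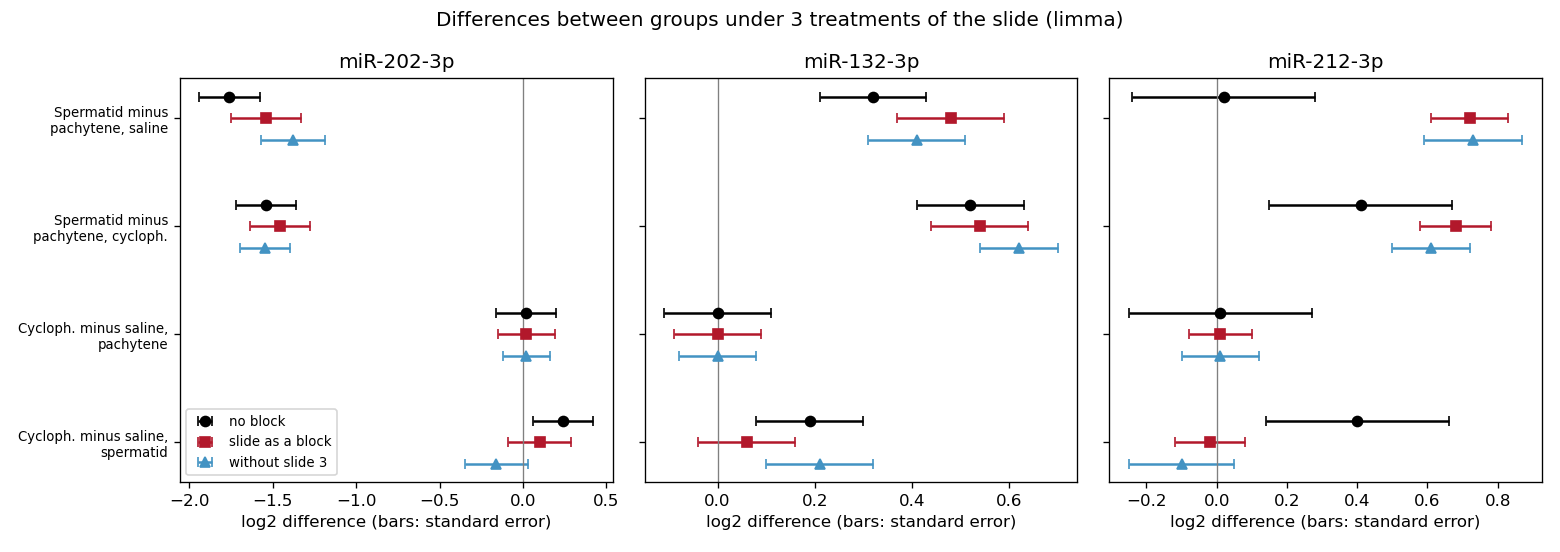
Log2 differences of miR-202-3p, miR-132-3p and miR-212-3p in 4 comparisons (limma; points are estimates and bars 1 standard error; each panel has its own axis), with no block, with slide as a block and without slide 3. miR-202-3p stays below 0 and miR-132-3p above 0 between cell types in all 3 fits, while the saline difference of miR-212-3p goes from 0.02 to 0.72 with the block.

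The difference of miR-202-3p and miR-212-3p on the same array is free of the scaling between arrays, while a difference with miR-132-3p is not, since the floor follows the scaling. In all, 12 comparisons of such differences were made between groups of 5 with an exact two-sided permutation test. The log2 signal of miR-202-3p minus that of miR-212-3p was -1.78 ± 0.35 (SD, n = 5) in saline pachytene spermatocytes and -3.56 ± 0.40 in saline round spermatids. In cyclophosphamide rats it was -1.77 ± 0.08 and -3.72 ± 0.61. The changes, -1.78 and -1.95, each gave the smallest p that this exact test allows, 0.00794 (0.0238 adjusted over the 12 tests), so the miRNAs moved unequally between the cell types. Only the change of such a difference is read, since its level depends on both probes.

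Within slide 1 the change of miR-202-3p minus miR-212-3p was -2.47 in saline and -1.99 in cyclophosphamide rats, and within slide 2 it was -1.78 and -2.70. Without slide 3 it was -2.10 in saline rats, where 2 arrays against 5 allow an exact p no lower than 0.0476 (0.143 adjusted), and -2.17 in cyclophosphamide rats (exact p = 0.00794, 0.0476 adjusted). For miR-202-3p minus miR-132-3p the changes were -2.09 and -2.06, also at the smallest exact p of 0.00794 (0.0238 adjusted), but with miR-132-3p at the floor on all pachytene arrays these carry little beyond miR-202-3p itself.

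miR-132-3p minus miR-212-3p, the pair that shares a seed, changed by 0.30 in saline rats (exact p = 0.325, 0.781 adjusted) and by 0.11 in cyclophosphamide rats (exact p = 0.532, 0.925 adjusted). These values rest on the floor and on slide 3. With a floor of 6.11 they were 1.30 and 1.11 (exact tests, both 0.0159 adjusted), and without slide 3 they were -0.32 and 0.01 at the floor of 12.2.

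**Figure D3:**
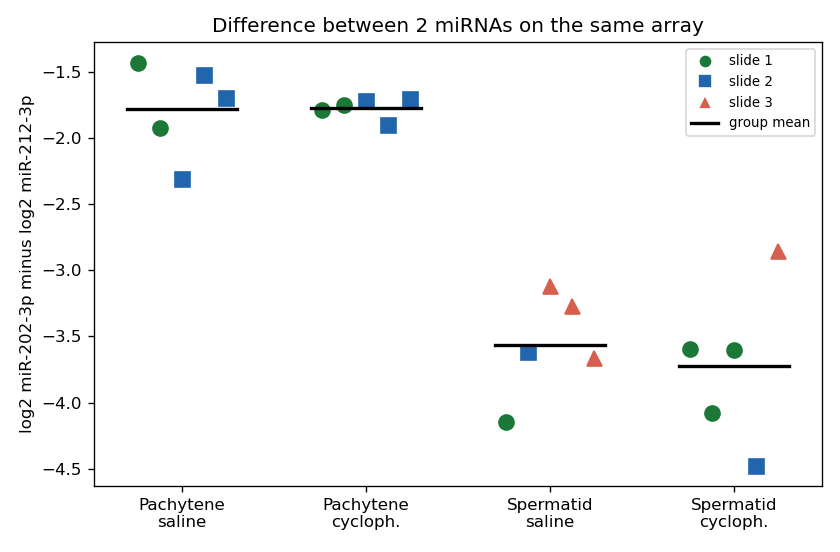
Log2 signal of miR-202-3p minus log2 signal of miR-212-3p on the same array, by group, with colour and shape for the slide and a bar at the mean of each group (n = 5). Pachytene arrays lie between -2.31 and -1.43 and spermatid arrays between -4.48 and -2.86, with no overlap.

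Cyclophosphamide against saline gave no call for any of the 3 miRNAs, nor for any other. Of the 217 tested miRNAs limma called 0.0% for the effect in either cell type and for the difference between the effects. At an unadjusted p under 0.05 limma left 4 miRNAs in round spermatids, 1 in pachytene spermatocytes and 1 where the effects were set against each other. In pachytene spermatocytes the effects were 0.02 ± 0.18 (SE; 95% interval -0.36 to 0.40) for miR-202-3p and 0.01 ± 0.26 (-0.53 to 0.56) for miR-212-3p, both with a limma adjusted p of 1.0. miR-132-3p was at the floor in both groups, so no effect on it could be seen there.

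In round spermatids the effects were 0.24 ± 0.18 (SE; 95% interval -0.14 to 0.62) for miR-202-3p, 0.19 ± 0.11 (-0.04 to 0.43) for miR-132-3p and 0.40 ± 0.26 (-0.14 to 0.94) for miR-212-3p, each with a limma adjusted p of 0.831. All 3 were above 0, and 3 saline arrays but 1 cyclophosphamide array lay on slide 3. With slide as a block the effects were 0.10, 0.06 and -0.02. Within slides 1, 2 and 3 the effect on miR-212-3p was -0.12, 0.01 and 0.05, and that on miR-202-3p was 0.26, -0.85 and 0.54. The value of -0.85 sets 1 array against 1, both assumed to vary like the pachytene arrays of that slide, and is read as a value only, as is that of miR-132-3p, 0.21, whose pachytene arrays all lay at the floor.

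The intervals leave room for effects of the drug of up to 1.54-fold for miR-202-3p, 1.35-fold for miR-132-3p at this floor and 1.92-fold for miR-212-3p in round spermatids. They use a spread shared with the pachytene groups, where miR-132-3p had none at the floor. From the spermatid groups alone the SE was 0.24 for miR-202-3p and 0.15 for miR-132-3p, against 0.18 and 0.11. The limits for these miRNAs are thus narrower than the spermatid arrays alone would give. The differences of the effects, spermatids minus pachytene, were 0.22 ± 0.26 (SE), 0.19 ± 0.16 and 0.38 ± 0.36, each with a limma adjusted p of 1.0.

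**Figure D4:**
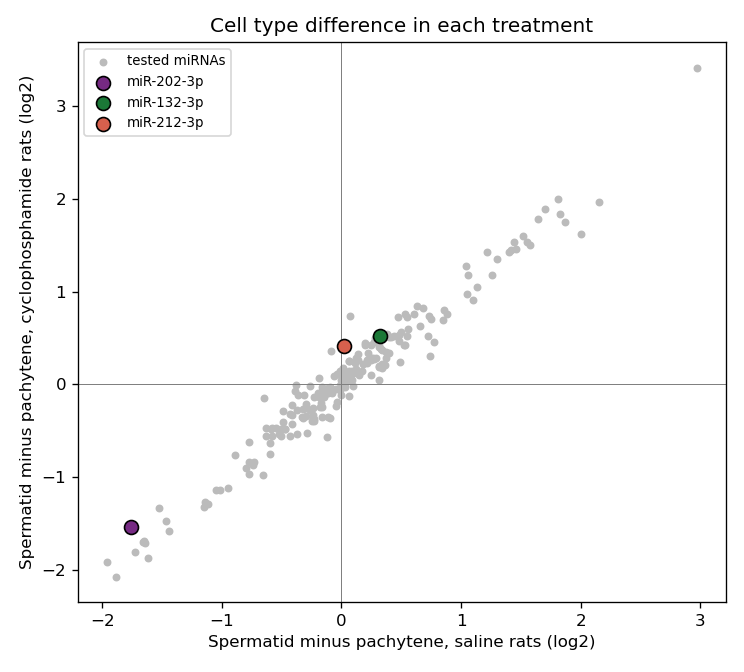
Log2 difference of round spermatids minus pachytene spermatocytes in saline rats (horizontal) and cyclophosphamide rats (vertical) for the 217 tested miRNAs, with the 3 miRNAs in colour. miR-202-3p lies at the lower end, at -1.76 and -1.54. miR-132-3p (0.32 and 0.52) and miR-212-3p (0.02 and 0.41) lie nearer the middle, but the floor and slide 3 shape their places. With a floor of 6.11 miR-132-3p was at 1.32 and 1.52, and with slide as a block miR-212-3p was at 0.72 and 0.68.

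The miRNAs with a pattern most like each of the 3 are given by Pearson r of log2 signals over the 20 arrays, which share groups, slides and scaling. Such an r picks miRNAs that differ between groups or slides in the same direction. The directions given for them are therefore a description only. For miR-202-3p they were miR-652-3p (r = 0.95), miR-547-3p (0.947), miR-138-5p (0.943), miR-741-3p (0.94) and miR-500-3p (0.939). All 5 were also lower in spermatids, by log2 values from -1.73 to -0.47 in saline rats. Over deviations from the group means the r fell to between 0.252 and 0.577.

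For miR-132-3p the 5 were miR-652-5p (r = 0.826), miR-551b-5p (0.812), miR-140-3p (0.795), miR-7a-5p (0.794) and miR-7a-2-3p (0.788), all higher in spermatids. Over deviations from the group means their r fell to between 0.216 and 0.418. For miR-212-3p they were miR-487b-3p (0.947), miR-338-5p (0.866), miR-483-5p (0.826), miR-770-3p (0.815) and miR-3541 (0.811). Here the r over deviations from the group means stayed between 0.801 and 0.948, and all 5 were lower on slide 3, by log2 values from -1.35 to -0.63. miR-132-3p and miR-212-3p correlated at 0.522 over the 20 arrays, and miR-202-3p with them at -0.70 and -0.095. Over deviations from the group means these values were 0.454, 0.03 and 0.412. miR-132-3p stood at the floor on all pachytene arrays, so its deviations come from round spermatids only.

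Of the miRNAs described in Sertoli cells 12 were on the array and 10 were tested. In saline and in cyclophosphamide rats alike, 5 were higher in spermatids and 2 lower, with medians of 0.15 and 0.13 against 0.02 and 0.05 over all tested miRNAs. Over all tested miRNAs 25.8% and 29.0% were higher and 22.1% lower in both. The 2 of 10 lower here, miR-202-3p itself among them, were near that share, and the 5 of 10 higher were above theirs. The higher ones were miR-24-3p, at 1.40 ± 0.16 (SE) and 1.43 ± 0.16, miR-23b-3p, at 1.42 ± 0.16 and 1.45 ± 0.16, miR-133b-3p, at 1.58 ± 0.15 and 1.5 ± 0.15, and the arms miR-140-3p and miR-140-5p. The lower ones were miR-202-3p and miR-30c-5p, the latter at -0.17 ± 0.07 and -0.20 ± 0.07. miR-133b-3p entered testing only through the spermatid groups in which it is high, so its calls are a description.

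The other Sertoli cell markers miR-872-5p and miR-125a-3p were detected on all 20 arrays and did not pass the test between cell types, at -0.16 ± 0.07 (SE) and 0.06 ± 0.28 in saline and -0.03 ± 0.07 and -0.12 ± 0.28 in cyclophosphamide rats. The summed signal of the detected list members without miR-202-3p was 759 to 969 in pachytene spermatocytes and 987 to 1360 in round spermatids. Each member enters such a sum by its own probe response, here and for the lists below, so no sum measures the content of a cell type. The Sertoli cell sum moved opposite to miR-202-3p and in the direction of miR-132-3p. Its part in either result was not tested.

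Of 8 miRNAs described as responding to gonadotropins or cyclic AMP, 6 were tested. In saline rats 3 were higher in spermatids (miR-132-3p, miR-29a-3p and miR-143-3p) and 1 lower (miR-21-5p, -0.20 ± 0.06, SE). In cyclophosphamide rats the same 3 were higher and 0 lower. The medians were 0.17 and 0.46, against 0.02 and 0.05 over all tested miRNAs. Both medians are set by miR-212-3p and miR-132-3p, at 0.02 and 0.32 in saline and 0.41 and 0.52 in cyclophosphamide rats. They therefore carry the limits of the floor and of slide 3 and say nothing of the rest of the list. The shares over all tested miRNAs were 25.8% and 29.0% higher and 22.1% lower in both, and miR-132-3p had entered only through spermatids. miR-143-3p, known from smooth muscle and peritubular cells, differed by 1.81 ± 0.23 and 2.0 ± 0.23, and miR-29a-3p by 0.50 ± 0.10 and 0.56 ± 0.10.

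Markers of other cells moved with the cell type as well. Of 8 tested mesenchymal and endothelial miRNAs 6 were higher in spermatids under both treatments, against 25.8% and 29.0% of all tested miRNAs. The endothelial miR-126a-3p was lower in cyclophosphamide rats, at -0.83 ± 0.31 (SE). In saline rats it was -0.73 ± 0.31, with a limma adjusted p of 0.0636. Its other arm, miR-126a-5p, differed by -0.39 ± 0.20 and -0.07 ± 0.20 in saline and cyclophosphamide rats and did not pass the test. Medians were 1.60 and 1.64, and the summed signal of the list was 632 to 1580 in pachytene spermatocytes and 2090 to 4060 in round spermatids. The muscle miRNAs miR-1-3p and miR-133a-3p were detected on 2 of 20 arrays each.

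Of 3 tested blood cell miRNAs 1 was higher in saline and 2 in cyclophosphamide rats (25.8% and 29.0% over all tested miRNAs), led by the myeloid miR-223-3p at 2.15 ± 0.15 (SE) and 1.96 ± 0.15. miR-142-3p differed by 0.53 ± 0.23 and 0.76 ± 0.23. miR-150-5p went the other way, at -0.25 ± 0.34 and -0.39 ± 0.34, and did not pass the test. The red cell miRNAs miR-451-5p and miR-144-3p were detected on 1 and 0 of 20 arrays. The summed blood list was 75.7 to 119 in pachytene spermatocytes and 140 to 225 in round spermatids. What part these cells had in the higher miR-132-3p of round spermatids was not tested.

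Among germ cell lists, 1 of 5 tested miR-34 and miR-449 members was higher in saline and 2 in cyclophosphamide rats, with 0 lower. Of 21 tested X-linked miRNAs of spermatocytes 2 were higher and 11 lower in saline rats, and 2 and 12 in cyclophosphamide rats, with medians of -0.33 and -0.35. The shares over all tested miRNAs were 25.8% and 29.0% higher and 22.1% lower in both. Of 4 tested spermatogonial miRNAs 3 were lower in saline rats (miR-221-3p, miR-222-3p and miR-21-5p) and 2 in cyclophosphamide rats, with 1 higher, miR-146a-5p. miR-221-3p differed by -1.64 ± 0.22 (SE) and -1.71 ± 0.22, miR-222-3p by -1.44 ± 0.14 and -1.58 ± 0.14, miR-21-5p by -0.20 ± 0.06 and -0.09 ± 0.06, and miR-146a-5p by 2.0 ± 0.19 and 1.62 ± 0.19. miR-146a-5p entered testing only through spermatids, in which it is high. miR-222-3p and the X-linked miR-201-3p and miR-547-5p entered only through pachytene spermatocytes, in which they are high. The calls of these miRNAs are a description. The lowest values of the X-linked list were those of miR-201-5p and miR-547-3p, at -1.89 and -1.73 in saline and at -2.07 and -1.81 in cyclophosphamide rats. Its members with the highest signals, miR-741-3p and miR-883-3p, differed by -0.47 and -0.19 in saline and by -0.48 and -0.14 in cyclophosphamide rats. The 2 higher members were miR-742-5p and miR-883-5p. What part any of these cells had in the lower miR-202-3p was not tested. Between cyclophosphamide and saline 0 members of any list were called.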

How the data were processed

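The authors deposited scanner files of linear spot intensity, from which background had been subtracted. The software was Agilent Feature Extraction 11.5.1.1, per the file headers. The file of cyclophosphamide spermatid rat 14 holds them rounded to 3 digits. The deposited value table holds log2 values of the authors, whose normalization is not given in the sources used here. It was used as an alternative for 187 miRNAs matched by name.

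Processed signals were divided by the 75th percentile of each array over 2176 spots well above background on all arrays, returned to 1 common level, raised to the floor where below it and taken to log2. Control and outlier spots were left out, spots of a probe were averaged, and the brightest probe stood for a miRNA. Testing took in each miRNA that was detected on every array of 1 group or more. The groups entered 1 model of 4 means in limma 3.58.1 (R 4.3.3), with 16 residual degrees of freedom, with Benjamini-Hochberg adjustment over 217 miRNAs and a threshold of 0.05. The scripts were tested on simulated data.

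Slides were read from the labels. Equal rat numbers in both cell types, other than the cyclophosphamide number 16, were checked for pairing by the correlation of deviations from the group means. The 3 miRNAs, the lists (opposite arms, Sertoli cell, gonadotropin or cyclic AMP, let-7, germ cell, X-linked, spermatogonial, mesenchymal and endothelial, blood) and the tests were chosen with earlier results of these data known. Named miRNAs are the 3, their opposite arms, the 5 most alike by r, and list members with the highest mean signal. Other list members, miR-201-5p among them, were named after their values were seen. Alternatives covered scaling, background, floor, probes, filter, slide, rat number and each array left out. Normexp started from median spot and background signals.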

Additional observations from a re-analysis of the deposited data

Results flagged for a closer look

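In cyclophosphamide round spermatids the miR-212-3p signal of rat 26 stood apart from the other 4 rats, at 7.87 on the log2 scale. Its gap to the next array took a share of 0.721 of the range of the group, above Dixon's 95% critical value for 5 samples. It was the only array of its group on slide 3, and the 3 saline spermatid arrays of that slide had like signals, at 219 to 241 before log2. Chance alone puts about 1 in 20 groups past this limit.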

How the results depend on the processing

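Differences are log2 unless said otherwise, limma adjusted p-values stand in parentheses, and no cause of a change was tested. The lower miR-202-3p of round spermatids kept its direction under all alternatives, from -2.24 to -0.38 in saline and from -2.06 to -0.73 in cyclophosphamide rats, and its call under all but normexp in saline rats (-0.38, 0.199). miR-132-3p stayed higher, from 0.16 to 6.93 in saline and from 0.22 to 7.40 in cyclophosphamide rats, but its size followed the floor, and 2.22 and 3.08 came from a floor of 1, chosen after seeing the data. The largest values came from the deposited table.

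Calls for miR-132-3p were lost in saline rats with the mean over all probes (0.16, 0.0642), no filter (0.32, 0.0837), a percentile over all probe spots (0.26, 0.0897) and within slide 1 (0.57, 0.0588). They were lost in saline and cyclophosphamide rats without scaling (0.29, 0.246 and 0.35, 0.182), with quantile normalization (0.29, 0.135 and 0.31, 0.106), with normexp (0.90, 0.103 and 0.22, 0.99), and without scaling but with a slide block, chosen after seeing the data (0.35, 0.235 and 0.32, 0.258). miR-212-3p gained calls between cell types with a slide block (0.72, 4.07e-05 and 0.68, 1.32e-05), a scan date block (0.69, 0.000114 and 0.63, 5.19e-05), without slide 3 (0.73, 0.000709 and 0.61, 0.000423) and within slide 1 in cyclophosphamide rats (0.73, 0.00606). These fits draw on spermatid arrays of slides 1 and 2 to compare cell types, so they are not independent of each other. From 1 saline spermatid array each, the miR-212-3p difference was 0.74 within slide 1 and 0.73 within slide 2. miR-212-3p gained 1 call with slide as a random block in cyclophosphamide rats (0.56, 0.02). Its saline difference turned below 0 with array weights (-0.18), the deposited table (-0.06), no scaling (-0.45), a percentile over all probe spots (-0.22) and the total gene signal (-0.03).

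No treatment effect had a call over all arrays, and several turned sign. In round spermatids that on miR-212-3p was -0.02 with a slide block, -0.05 with a scan date block, -0.12 within slide 1, -0.10 without slide 3 and -0.01 without scaling but with a slide block. Its difference from the pachytene effect was -0.04, -0.06, -0.02 and -0.12 under the first 4 of these and -0.08 within slide 2. For miR-202-3p the spermatid effect was -0.14 with normexp, -0.16 without slide 3 and -0.85 within slide 2, and the difference of effects was -0.35, -0.18 and -1.01, the slide 2 values again from 1 spermatid array per treatment. For miR-132-3p the spermatid effect was -0.21 with normexp, -0.16 within slide 3, -0.04 without scaling but with a slide block, and 0.21 within slide 2, and the difference of effects was -0.68 with normexp, -0.04 without scaling but with a slide block, and 0.21 within slide 2. Both values of 0.21 rest on 1 spermatid array per treatment and take their spread from pachytene arrays at the floor, so their p-values say nothing. In pachytene spermatocytes miR-202-3p turned to -0.14 without scaling, with or without a slide block, -0.05 with a percentile over all probe spots, -0.01 with the total gene signal and -0.20 within slide 1. miR-212-3p turned there to -0.15, -0.05, -0.03 and -0.11 under the same settings and to -0.02 in the deposited table.

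Within arrays, miR-132-3p minus miR-212-3p between cell types was 1.30 and 1.11 with a floor of 6.11 (exact tests, both 0.0159 adjusted), -0.15 in cyclophosphamide rats with the mean over all probes, and -0.32 in saline rats without slide 3. Without slide 3 its treatment change in spermatids was 0.31 and that of miR-202-3p minus miR-132-3p was -0.37. Between cell types in saline rats miR-202-3p minus miR-132-3p was then -1.78 and miR-202-3p minus miR-212-3p was -2.10 (exact tests of 2 against 5 arrays, both 0.143 adjusted).

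Leaving out each array in turn gave, between cell types in saline and in cyclophosphamide rats, -1.93 to -1.61 and -1.63 to -1.44 for miR-202-3p, 0.26 to 0.40 and 0.42 to 0.62 for miR-132-3p, and -0.16 to 0.15 and 0.32 to 0.61 for miR-212-3p. Treatment effects in pachytene spermatocytes ranged from -0.03 to 0.07 for miR-202-3p and from -0.04 to 0.10 for miR-212-3p. Within arrays, the treatment change of miR-202-3p minus miR-132-3p ranged from -0.03 to 0.07 in pachytene spermatocytes and from -0.13 to 0.23 in spermatids, that of miR-202-3p minus miR-212-3p from -0.38 to 0.03 in spermatids, and that of miR-132-3p minus miR-212-3p from -0.10 to 0.04 in pachytene spermatocytes.

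The number of miRNAs called between cell types, 104 in saline and 111 in cyclophosphamide rats, became 30 and 39 with normexp, 54 and 70 within slide 1, and 65 and 67 without scaling but with a slide block. It was 72 in cyclophosphamide rats without scaling. Calls for treatment in spermatids, 0 over all arrays, were 28 within slide 2, from 1 array against 1, and 1 within slide 3, and calls for the difference of effects were 25 within slide 2. Without scaling the median of all miRNAs moved to -0.37 and -0.21 between cell types.

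Equal rat numbers did not show pairing where this was checked. Deviations of saline rats 16, 25 and 28 correlated at 0.065, 0.167 and -0.289 between cell types, and those of cyclophosphamide rat 15 at 0.115. The cyclophosphamide number 16, which recurs among the pachytene arrays, was not checked. With these 3 saline rats and a replicate block, miR-202-3p differed by -1.73 (0.0439), miR-132-3p by 0.22 (0.284) and miR-212-3p by -0.19 (0.774), and 63 miRNAs were called. With the rat number as a random replicate block over all arrays the differences of miR-202-3p were -1.76 and -1.54. The signal over background limits miR-132-3p and the 5p arms, and the 3 slides limit miR-212-3p.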
